A study of Saccharomyces cerevisiae with 6 samples.

Results

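The data describe the messenger RNA levels of 10 genes that encode amino acid permeases of budding yeast, Saccharomyces cerevisiae. They are the general amino acid permease gene GAP1, the basic amino acid permease genes CAN1, LYP1 and ALP1, the histidine permease gene HIP1, the acidic amino acid permease gene DIP5, the proline permease gene PUT4, the methionine permease genes MUP1 and MUP3, and the aromatic amino acid permease gene TAT2. They were chosen by symbol from the array's annotation. Each has 1 probe set, a group of short probes against 1 transcript, so they make up 10 of 5498 tested probe sets and 10 of 5449 genes. No probe set of the 10 is of a kind marked as matching several transcripts.

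Levels were measured on 6 Affymetrix expression arrays, 3 hybridised with RNA of wild type yeast (replicates 3, 4 and 6) and 3 with RNA of yeast in which VPS4 was deleted (replicates 4, 5 and 6). All cultures were harvested in the middle of exponential growth at 26 °C, in a synthetic yeast nitrogen base medium containing whichever amino acids the strain needed. The labels name neither the strain background nor the amino acids supplied, and do not say whether replicates were separate cultures, so p-values measure the spread between these arrays, which may be technical.

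Amino acid permeases sit in the plasma membrane and carry amino acids into the cell. When a permease is no longer needed, the ubiquitin ligase Rsp5 and its adaptors tag it, it is taken into endosomes, and the ESCRT complexes sort it into multivesicular bodies that deliver it to the vacuole for breakdown. Vps4 is the ATPase that disassembles ESCRT-III at the end of that sorting. The levels below are of messenger RNA and say nothing of how much permease protein the cells held or where it was. Transcription of these genes is known to respond to nitrogen supply through GATA factors, to external amino acids through the SPS sensor, and to sulfur amino acids through Met4.

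Each array passed a check of its label: VPS4 stood at 11.39 to 11.48 on the log2 scale on the wild type arrays and at 1.29 to 1.75 on the deletion arrays, a drop of at least 760-fold (limma adjusted p = 1.30e-07). The 3 deletion arrays correlated with each other at 0.9988 to 0.9991 across probe sets, and wild type replicates 4 and 6 at 0.9991, whereas wild type replicate 3 correlated with the other wild type arrays at 0.9926. Between the genotypes, the values were 0.9936 to 0.9943 for wild type replicates 4 and 6, and 0.9895 to 0.9899 for wild type replicate 3. By this measure replicates 4 and 6 stood nearer to every deletion array than to the third array of their own genotype. Probe sets are not independent replicates, so these are descriptions. Because replicate 3 stands apart, each permease result is given with and without it. That array was singled out after its values were seen, and the fit without it rests on wild type replicates 4 and 6 alone. Leaving out an array that stands apart narrows the spread, so the adjusted p-values of that fit may be too small. All 10 permease probe sets lay above background on all 6 arrays, and the smallest margin was 0.74 log2, for ALP1 on 1 array.

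Of the 10 permease genes, 2 changed in the deletion. ALP1 rose 1.67-fold and DIP5 fell by 0.82 on the log2 scale, a level 1.76-fold higher in wild type (limma, Benjamini-Hochberg adjusted p = 0.0412 and 0.0195). The other 8 did not pass at an adjusted p of 0.05. Thus 1 of 10 rose and 1 of 10 fell, where 4.27% of all tested probe sets passed, 2.82% higher and 1.46% lower. The groups did not overlap for 4 of the 10 (LYP1 and ALP1 higher, GAP1 and DIP5 lower), against 24.8% of all tested probe sets. The same 4 had an unadjusted p under 0.05 by limma, against 17.4% of all tested probe sets.

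**Figure D1:**
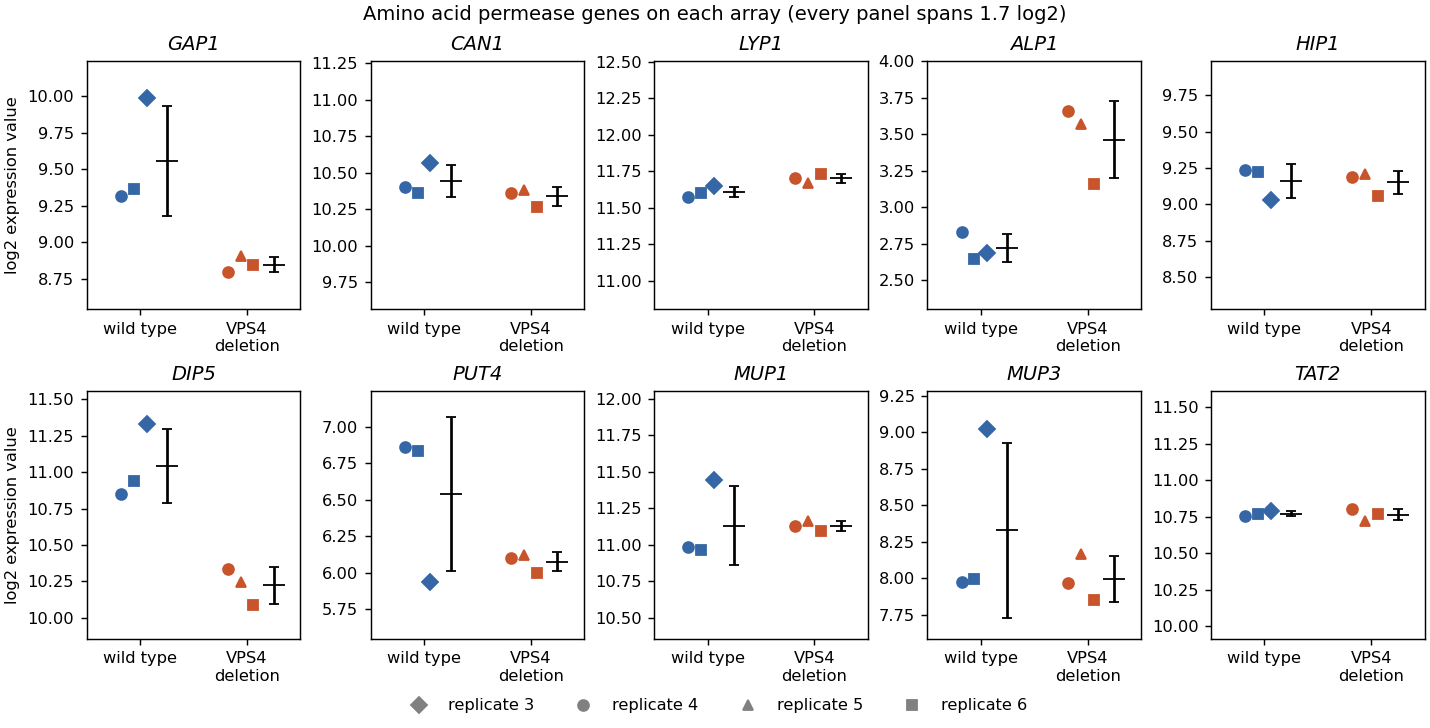
Each panel plots the log2 expression value of 1 permease gene on the 3 wild type arrays (blue) and the 3 VPS4 deletion arrays (orange), with marker shape for the replicate number and a bar for the group mean ± SD (n = 3); each y axis spans 1.7 log2. ALP1 and DIP5 separate by genotype, and wild type replicate 3 (diamond) lies away from the other wild type arrays for GAP1, DIP5, PUT4, MUP1 and MUP3.

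GAP1 takes up nearly all amino acids and is made mainly on poor nitrogen sources. Its log2 values were 9.31, 9.36 and 9.99 on wild type replicates 4, 6 and 3, and 8.79, 8.90 and 8.85 on deletion replicates 4, 5 and 6. Every deletion array lay below every wild type array, and the highest wild type value was that of replicate 3. The difference, deletion minus wild type, was −0.71 ± 0.17 (SE; 95% confidence interval −1.12 to −0.30), which did not pass (limma adjusted p = 0.0780). Replicate 3 exceeded the mean of the other wild type arrays by 0.65. Without it the difference was smaller, −0.49 ± 0.05 (SE), and GAP1 fell (limma adjusted p = 5.88e-05). In the 5 fits that left out another array, it did not pass.

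DIP5 carries glutamate and aspartate. It stood at 10.85, 10.94 and 11.33 on wild type replicates 4, 6 and 3, and at 10.33, 10.25 and 10.09 on deletion replicates 4, 5 and 6. The groups were separated by 0.52 log2 at their nearest arrays. The means were 11.04 ± 0.25 and 10.22 ± 0.12 (SD, n = 3), and the difference was −0.82 ± 0.13 (SE; 95% confidence interval −1.12 to −0.51). Leaving out wild type replicate 3 gave −0.67 ± 0.06 (SE; limma adjusted p = 4.76e-05), and DIP5 also passed without wild type replicate 4 (0.0339). It did not pass without wild type replicate 6 (limma adjusted p = 0.0598), deletion replicate 4 (0.0779), deletion replicate 5 (0.0987) or deletion replicate 6 (0.102), where the difference lay between −0.87 and −0.75.

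CAN1, LYP1 and ALP1 form a family of basic amino acid permeases: Can1 carries arginine, Lyp1 lysine, and Alp1 is an arginine transporter close in sequence to Can1. ALP1 stood at 2.83, 2.65 and 2.69 on wild type replicates 4, 6 and 3, and at 3.66, 3.57 and 3.16 on deletion replicates 4, 5 and 6. All deletion arrays lay above all wild type arrays, with deletion replicate 6 nearest to them. These are dim values, close to the background of 1.82 to 1.92, where the processing of the arrays compresses differences. The means were 2.72 ± 0.10 and 3.46 ± 0.27 (SD, n = 3), and the difference was 0.74 ± 0.15 (SE; 95% confidence interval 0.40 to 1.09). For this gene wild type replicate 3 was only 0.05 below the mean of replicates 4 and 6 (−0.05), and the call held when it was left out (0.73 ± 0.16 SE; limma adjusted p = 0.00965). It held as well without deletion replicate 6 (0.89; limma adjusted p = 0.0384). ALP1 did not pass without wild type replicate 4 (limma adjusted p = 0.0888), wild type replicate 6 (0.141), deletion replicate 4 (0.155) or deletion replicate 5 (0.173).

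LYP1 stood at 11.58, 11.60 and 11.65 on wild type replicates 4, 6 and 3, and at 11.70, 11.67 and 11.73 on deletion replicates 4, 5 and 6. The groups did not overlap, but the lowest deletion array was within 0.02 log2 of the highest wild type array. The difference was 0.09 ± 0.03 (SE; 95% confidence interval 0.03 to 0.16) and did not pass (limma adjusted p = 0.149). Without wild type replicate 3, LYP1 rose by 0.11 ± 0.02 (SE; limma adjusted p = 0.00983).

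CAN1 ranged from 10.36 to 10.57 in wild type and from 10.26 to 10.38 in the deletion, so the groups overlapped. Its difference was −0.11 ± 0.06 (SE; 95% confidence interval −0.25 to 0.04; limma adjusted p = 0.453). Dropping wild type replicate 3 gave −0.04 ± 0.04 (SE), and CAN1 passed in none of the 6 fits with 1 array left out. The estimates of the 3 basic permease genes therefore did not share a sign. As the interval of CAN1 includes 0 and LYP1 did not pass, opposite directions of these 3 genes were not shown.

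The difference between their differences was tested over arrays, with 4 pairs of genes in all and an exact two-sided permutation test that cannot go below p = 0.1 with 3 arrays against 3. ALP1 differed from CAN1 by 0.85 log2 and from LYP1 by 0.65, and CAN1 from LYP1 by −0.20 (exact p = 0.1 for each, 0.133 after adjustment over the 4 pairs). With wild type replicate 3 dropped these values were 0.77, 0.61 and −0.16. With all arrays, the within-array difference of the deletion arrays did not overlap that of the wild type arrays in any of these pairs. That is the same fact as an exact p of 0.1 and adds nothing to it.

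**Figure D2:**
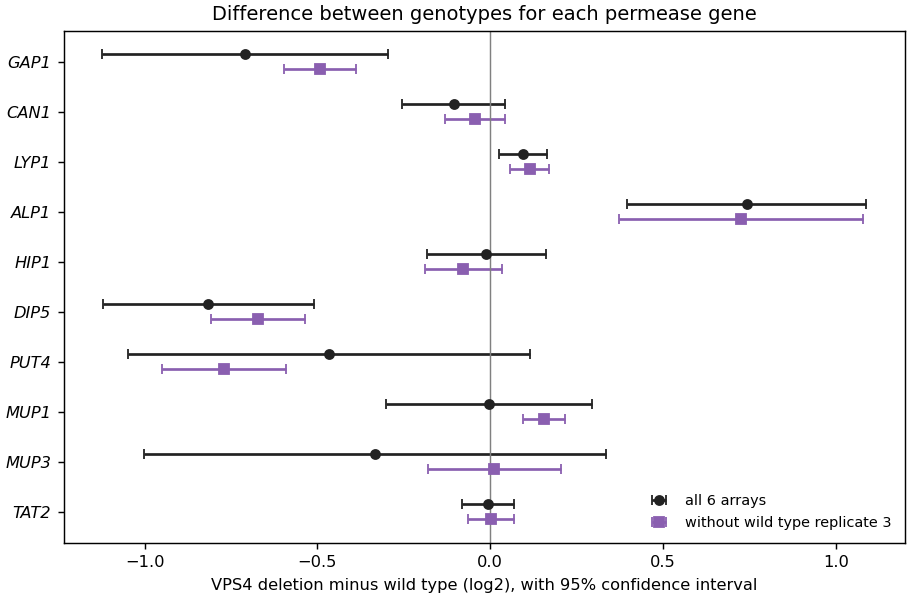
Points give the difference in log2 expression value, VPS4 deletion minus wild type, for each permease gene with its 95% confidence interval, from all 6 arrays (black circles) and without wild type replicate 3 (purple squares). Intervals for GAP1, DIP5, PUT4, MUP1 and MUP3 narrow once that array is left out, and PUT4 moves from −0.47 to −0.77.

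PUT4, the high-affinity proline permease gene, is repressed on rich nitrogen sources. It stood at 6.86 and 6.83 on wild type replicates 4 and 6, at 5.93 on wild type replicate 3, and at 6.10, 6.12 and 6.00 on deletion replicates 4, 5 and 6. Replicate 3 was lower than all 3 deletion arrays while the other wild type arrays were higher than all of them. With all arrays the difference was −0.47 ± 0.24 (SE; 95% confidence interval −1.05 to 0.12; limma adjusted p = 0.391). Without replicate 3, PUT4 fell by 0.77 (SE 0.08; limma adjusted p = 0.000122), and it passed in no other fit with 1 array left out.

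MUP1 encodes the high-affinity and MUP3 a low-affinity methionine permease. MUP1 stood at 10.98, 10.97 and 11.45 on wild type replicates 4, 6 and 3, and at 11.13, 11.16 and 11.09 on deletion replicates 4, 5 and 6. The deletion arrays lay between replicate 3 and the other wild type arrays. The difference was −0.003 ± 0.12 (SE; 95% confidence interval −0.30 to 0.29; limma adjusted p = 0.995), and without replicate 3 the direction turned: MUP1 rose by 0.15 ± 0.03 (SE; limma adjusted p = 0.00325).

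MUP3 stood at 7.97, 7.99 and 9.02 on wild type replicates 4, 6 and 3, and at 7.97, 8.17 and 7.85 on deletion replicates 4, 5 and 6. Replicate 3 was 1.04 above the other wild type arrays, the widest such gap among the 10 genes, while those 2 arrays fell inside the range of the deletion. The difference was −0.33 ± 0.28 (SE; 95% confidence interval −1.002 to 0.33) with all arrays and 0.01 ± 0.09 (SE) without replicate 3, and neither passed (limma adjusted p = 0.625 and 0.948). The change of MUP1 and that of MUP3 differed by 0.33 (exact permutation p = 0.2, also after adjustment over the 4 pairs), and by 0.14 once replicate 3 was dropped (exact permutation p = 0.3).

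HIP1, the histidine permease gene, and TAT2, which encodes a tryptophan and tyrosine permease, showed the smallest spans of values beside LYP1. HIP1 ranged from 9.03 to 9.24 in wild type and from 9.06 to 9.21 in the deletion, with a difference of −0.01 ± 0.07 (SE; 95% confidence interval −0.18 to 0.16; limma adjusted p = 0.961). TAT2 ranged from 10.75 to 10.79 and from 10.72 to 10.80, with a difference of −0.01 ± 0.03 (SE; 95% confidence interval −0.08 to 0.07; limma adjusted p = 0.947). With wild type replicate 3 dropped the differences were −0.08 ± 0.05 for HIP1 and 0.004 ± 0.03 for TAT2 (SE). The ranges overlapped for both genes, and neither passed in any fit with 1 array left out.

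**Figure D3:**
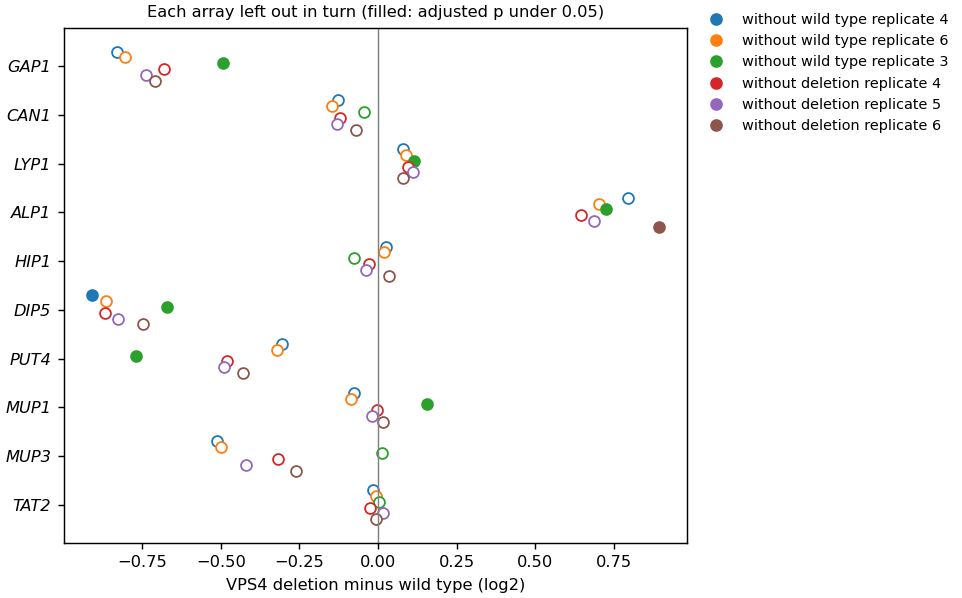
Each point is the log2 difference, VPS4 deletion minus wild type, of 1 permease gene in a fit with 1 array left out (colour names the array), filled where the limma adjusted p was under 0.05. DIP5, GAP1, PUT4 and CAN1 stayed below 0 and ALP1 and LYP1 above 0 in all 6 fits, while MUP1, MUP3, HIP1 and TAT2 crossed 0. For DIP5, GAP1, ALP1 and LYP1 the groups do not overlap, so leaving out an array could not change the sign.

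The genes also differed in how steady they were among wild type arrays. Wild type replicates 4 and 6 differed by at most 0.18 log2 across the 10 genes, with a median gap of 0.03. Replicate 3 lay more than 0.5 from their mean for GAP1, MUP3 and PUT4, which is 3 of 10 genes, against 5.33% of all tested probe sets. It was higher for GAP1 and MUP3 and lower for PUT4. The median SD of the 10 genes was 0.18 among wild type arrays against 0.07 among deletion arrays, where all tested probe sets had 0.08 and 0.05. This was not particular to the 10. Of 10 further permease genes, described below, replicate 3 lay more than 0.5 away for 2, and their median SDs were 0.14 and 0.05.

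**Figure D4:**
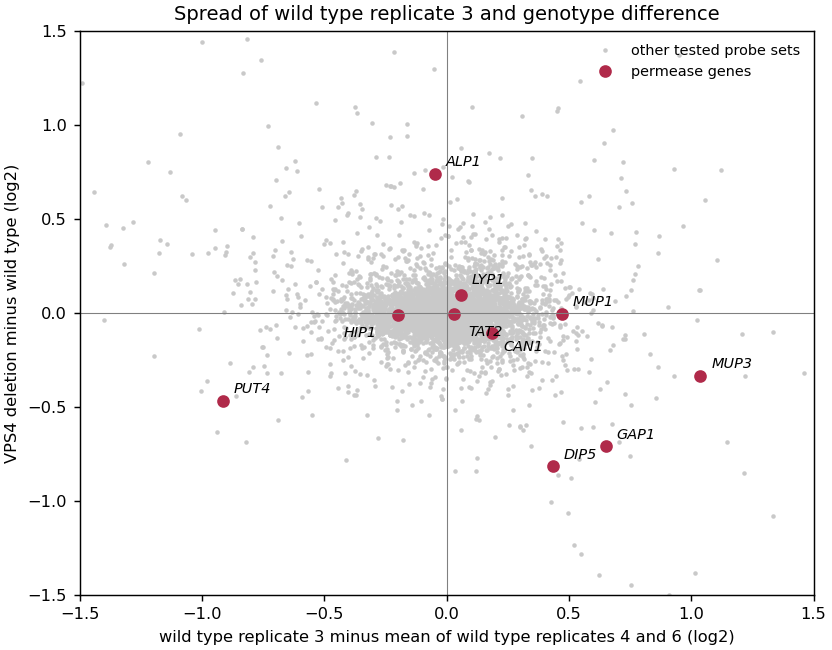
The x axis gives wild type replicate 3 minus the mean of wild type replicates 4 and 6, and the y axis VPS4 deletion minus wild type, both in log2, for the 10 permease genes (red) and the other tested probe sets (grey; 51 of them lie outside the axes, which end at 1.5). Replicate 3 enters both axes, so the axes are not independent; ALP1 has a genotype difference of 0.74 with replicate 3 at −0.05, whereas GAP1, DIP5, PUT4, MUP1 and MUP3 lie at 0.43 or more from 0 on the x axis.

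With replicate 3 left out, 3 of the 10 genes rose (LYP1, ALP1 and MUP1) and 3 fell (GAP1, DIP5 and PUT4). In that fit 22.0% of all tested probe sets passed, 11.9% higher and 10.1% lower. The 10 genes had a median absolute difference of 0.22 with all arrays, where all tested probe sets had 0.06, and 3 of them differed by more than 0.5 (GAP1, DIP5 and ALP1), compared with 3.26% of all tested probe sets. Their median signed difference was −0.06, and that of all tested probe sets was −0.002. Leaving out replicate 3 lowered the median absolute difference of the 10 genes to 0.13, against 0.07 for all tested probe sets, and their median signed difference was then −0.02. In that fit DIP5, ALP1 and PUT4 differed by more than 0.5 and GAP1 did not, compared with 3.58% of all tested probe sets.

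Among 10 further amino acid and related permease genes (AGP1, AGP2, AGP3, GNP1, BAP2, BAP3, TAT1, SAM3, MMP1 and UGA4), 0 passed by limma with all arrays, 1 had an unadjusted p under 0.05 (17.4% of all tested probe sets did), and their differences ran from −0.30 for MMP1 to 0.45 for UGA4. The value of UGA4 dropped to 0.17 when wild type replicate 3 was left out. MMP1, the S-methylmethionine permease gene, differed by −0.30 ± 0.07 (SE; limma adjusted p = 0.0771) and fell once wild type replicate 3 was dropped (−0.23; limma adjusted p = 0.00636). BAP3, a branched-chain amino acid permease gene, then rose by 0.10 (limma adjusted p = 0.0162). Thus 1 of these 10 rose and 1 fell in that fit, where 11.9% and 10.1% of all tested probe sets did. MMP1, UGA4 and BAP3 were chosen after their values were seen. The median absolute difference of these 10 genes was 0.15, or 0.08 when that array was left out.

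Genes that act on the permease proteins were read next. Of 12 genes for the exit of permeases from the endoplasmic reticulum and for their sorting, 0 passed by limma. Among them are the packaging chaperone gene SHR3 and the kinase gene NPR1. Of the 12, 0 had an unadjusted p under 0.05 (17.4% of all tested probe sets did), and with all arrays the differences lay between −0.14 and 0.04. Of 13 genes of the Rsp5 ligase, its adaptors and the deubiquitinase Doa4, 0 passed by limma and 3 had an unadjusted p under 0.05, a share near that of all tested probe sets, with differences from −0.19 to 0.36 and RSP5 itself at 0.01 ± 0.03 (SE). Without wild type replicate 3, 2 genes of the first list, LTV1 and SSH4, fell by 0.15 and 0.22 (limma adjusted p = 0.00706 and 0.0366). From the second list 1 gene, ROD1, rose by 0.51 (limma adjusted p = 0.00179). In that fit 22.0% of all tested probe sets passed, 11.9% higher and 10.1% lower, against 2 of these 12 genes and 1 of these 13. LTV1, SSH4 and ROD1 were chosen after their values were seen.

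Among the transcription factors known to act on permease genes, DAL80, a GATA repressor of nitrogen genes, was at least 1.36-fold higher in the deletion (limma adjusted p = 0.0235). Its probe set was not above background on any wild type array. The other 4 genes listed for nitrogen catabolite repression did not pass with all arrays. Of the 5, 4 had an unadjusted p under 0.05 by limma, against 17.4% of all tested probe sets. DAL80 and URE2 were higher, and GAT1 and GZF3 (−0.10, limma adjusted p = 0.245) lower. GLN3 differed by −0.08 ± 0.07 (SE, limma adjusted p = 0.646), and its groups overlapped. GAT1, an activator, differed by −0.25 ± 0.06 (SE, limma adjusted p = 0.0751). It fell in the fit without replicate 3 of the wild type (−0.27, limma adjusted p = 0.00965), and URE2 then rose by 0.13 (limma adjusted p = 0.0101). In that fit 11.9% of all tested probe sets rose and 10.1% fell. With 1 array left out, DAL80 passed when that array was wild type replicate 3 (limma adjusted p = 0.0135) and in none of the other fits, where the adjusted p was 0.0730 to 0.1197.

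Of 7 genes of the SPS sensor pathway, 0 passed by limma and 0 had an unadjusted p under 0.05, with differences from −0.06 to 0.12. Without wild type replicate 3, 1 of the 7 rose, where 11.9% of all tested probe sets rose. Of 8 other regulators, 0 passed by limma and 2 had an unadjusted p under 0.05, against 17.4% of all tested probe sets. Those were MET28 and MET32, cofactors of Met4 in sulfur metabolism, which differed by −0.59 ± 0.18 and −0.42 ± 0.13 (SE; limma adjusted p = 0.157 and 0.159). Both fell once replicate 3 was left out (−0.37 and −0.26, limma adjusted p = 0.00473 and 0.0134), a fit in which 10.1% of all tested probe sets fell. For these 2 genes replicate 3 exceeded the other wild type arrays by 0.67 and 0.47. GCN4, the activator of general amino acid control, differed by 0.02 ± 0.02 (SE). Apart from DAL80, the genes with values here were chosen after these were seen.

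Profiles over the 6 arrays were compared after centring each on its own mean, and likeness was the root mean square distance between them. Genes chosen in this way share the genotype difference and the values of wild type replicate 3 with their permease gene by construction, so their values describe the choice. Nearest to ALP1 were FRE3, a metalloreductase gene (0.07 log2), YEF1, an NAD kinase gene (0.08), and LSO1 (0.12). FRE3 rose by 0.75 (limma adjusted p = 0.0386, or 0.0508 with all probe sets of the table tested) and YEF1 differed by 0.68 (0.0625, or 0.0242 after quantile normalization). LSO1 was not above background in wild type and was at least 1.40-fold higher in the deletion (limma adjusted p = 0.0177).

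Nearest to DIP5 were SST2, which encodes a regulator of pheromone signalling (0.08 log2), PRM8, a gene of a pheromone-regulated membrane protein (0.13), and MFA2, a gene of the a-factor pheromone (0.13). Nearest to GAP1 were MET28 (0.08), PRM8 (0.09) and SST2 (0.10). SST2 fell by 0.86 and MFA2 by 0.88 (limma adjusted p = 0.0144 and 0.0323), and PRM8 differed by −0.61 (0.0747). All of FRE3, LSO1, SST2 and MFA2 passed without wild type replicate 3 (limma adjusted p from 4.25e-06 for SST2 to 0.00843 for FRE3). Over the fits with 1 array left out, SST2 passed in 3 of 6, FRE3 and MFA2 in 2 and LSO1 in 1, with highest adjusted p-values of 0.0858, 0.163, 0.147 and 0.0828.

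**Figure D5:**
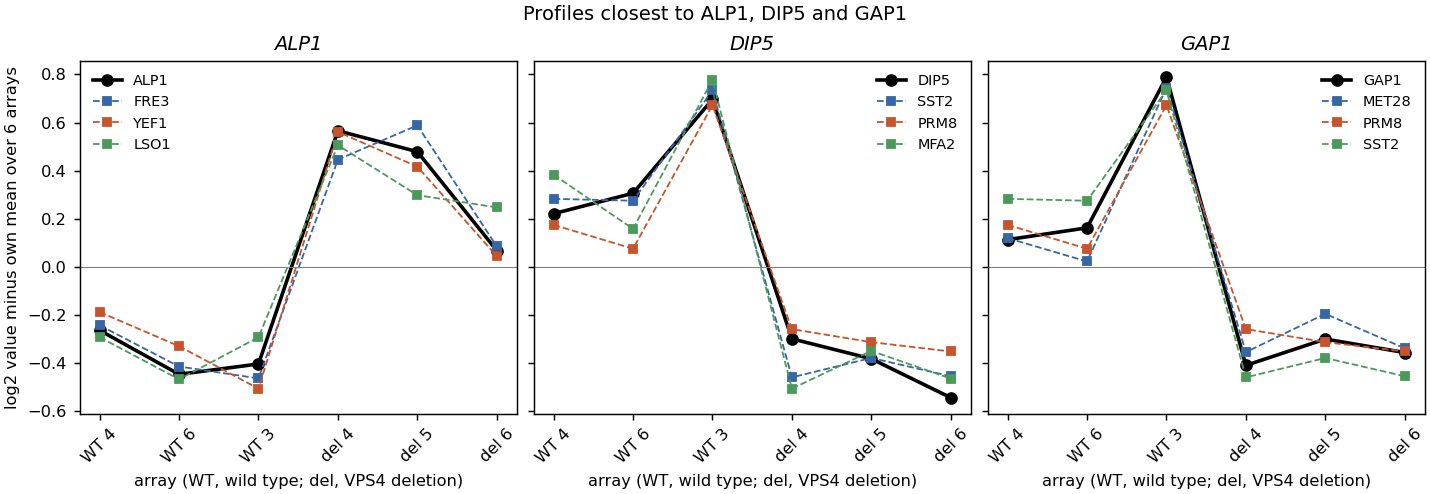
Each panel shows the log2 value minus its own mean over the 6 arrays for ALP1, DIP5 or GAP1 (black circles) and for the 3 genes with the closest profile (coloured squares); lines join arrays only to guide the eye. The ALP1 panel is low on all wild type arrays, and the DIP5 and GAP1 panels are highest on wild type replicate 3.

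Mating type markers were read for the same arrays. All 4 alpha cell and all 7 a cell marker genes were above background on every array. The alpha markers averaged 12.55 to 12.75 log2 on the wild type arrays and 12.29 to 12.38 on the deletion arrays, and the a markers 4.55 to 4.81 and 3.95 to 4.19. Of the alpha markers 2 of 4 fell, MF(ALPHA)2 by 0.31 and SAG1 by 0.63, and of the a markers 2 of 7, STE2 by 1.01 and MFA2 by 0.88 (limma adjusted p = 0.0194, 0.0144, 0.0101 and 0.0323). Leaving out wild type replicate 3 made these 3 and 4. Of all tested probe sets 1.46% fell, and 10.1% without that array. With all arrays the differences ran from −0.63 to −0.04 over the alpha markers and from −1.55 to 0.02 over the a markers. MF(ALPHA)1 at −0.04 and STE6 at 0.02 were nearest to no change (limma adjusted p = 0.388 and 0.960). The a marker AGA2 differed most, by −1.55, but did not pass (limma adjusted p = 0.194). It stood at 6.10, 5.63 and 3.92 on wild type replicates 4, 6 and 3. MF(ALPHA)2, SAG1, STE2 and MFA2 each passed in 2 or 3 of the 6 fits with 1 array left out. The part of these shifts in the values of DIP5 and GAP1 was not tested. In RNA of whole cultures, fewer cells with a transcript and less of it per cell cannot be told apart.

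Chromosomal neighbours were taken from the gene order of assembly R64. None of the 10 genes overlaps another gene listed in the table used, which does not list every reading frame. ALP1 and LYP1 lie on either side of BSC4, which did not pass (limma adjusted p = 0.302), and neither did BNI1 on the other side of ALP1 (0.06 ± 0.05 SE; limma adjusted p = 0.608). The neighbours of DIP5 differed by −0.08 ± 0.07 for DIM1 and 0.06 ± 0.16 for YPL264C (SE), and KAE1 beside GAP1 by −0.01 ± 0.04 (SE), and none of them passed. CRH1, a cell wall gene beside HIP1, rose by 0.18 ± 0.03 (SE; limma adjusted p = 0.0260), with HIP1 itself at −0.01; it passed in 2 of the 6 fits with 1 array left out (limma adjusted p from 0.00185 without wild type replicate 3 to 0.132), and not without the variance trend (0.0581). Of the neighbours that were measured, the nearest listed gene on either side of each of the 10, CRH1 was the only 1 that passed with all arrays. Over all tested probe sets 4.27% passed, so 1 call is no finding about the neighbours.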

How the data were processed

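The authors deposited log2 expression values per probe set for 6 Affymetrix arrays, made with GCRMA (probe-sequence background correction, quantile normalization and a robust summary) per the submitters' processing notes; the sources used here do not give its version. Labelling used a 3′ in vitro transcription kit, per the labels' protocols. GCRMA draws dim probe sets together, which shrinks their differences. No further normalization and no pseudocount was applied.

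Groups and replicate numbers come from the sample titles. Of 10928 probe sets, the 5498 that the platform annotation ties to a gene of S. cerevisiae were tested. Background was percentile 95 of 1746 probe sets of the other yeast on the array. limma 3.58.1 in R 4.3.3 (two-sided, with genotype as the only term and a trended variance prior) gave p-values that were adjusted over the 5498 probe sets by Benjamini-Hochberg; 0.05 was the threshold. The fit was tested on simulated data. The 3 arrays per group limit precision. A group not above background on any of its arrays has only a bound, for which each of its arrays counts at background or at the measured value, whichever is higher, before averaging.

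The permease genes and gene lists were chosen with earlier results of these data known. Genes named are all 10 permeases, list genes past the threshold, VPS4 and the 3 nearest profiles to ALP1, DIP5 and GAP1; other genes, chromosomal neighbours included, were picked with their values known. Alternatives were other variance priors, a filter on dim probe sets, 2 other normalizations, all probe sets tested, array weights, a block for the title number, each array left out and 2 other thresholds. The sources used here name no genome build for the annotation, so no coordinates are printed.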

Additional observations from a re-analysis of the deposited data

How the results depend on the processing

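Without the variance trend, with a robust prior, without dim probe sets, with quantile normalization or median centring, and with all probe sets tested, ALP1 was the 1 permease gene that rose and DIP5 the 1 that fell. With array weights, where wild type replicate 3 had a weight of 0.14 against 1.15 to 1.78 for the others, 2 rose and 3 fell (all tested probe sets: 600 and 436). At an adjusted p of 0.01, 0 rose and 0 fell (49 and 18), and at 0.1, 1 rose and 2 fell (272 and 150). With each array left out, 0 to 3 permease genes rose and 0 to 3 fell, and over all tested probe sets 17 to 656 and 5 to 556. With the title number as a replicate block, 3 rose and 3 fell (478 and 380), and MUP1 turned from −0.003 to 0.14; with each array left out it ranged from −0.086 to 0.154, the latter without wild type replicate 3. Only numbers 4 and 6 occur in both groups, so the block takes the difference from 4 arrays and leaves wild type replicate 3 out of it. Deviations from the group means correlated at 0.02 for number 4 and −0.06 for number 6 across probe sets. Arrays with unlike numbers gave −0.08 to 0.12. With so few shared numbers, these values cannot tell whether arrays of the same number share a batch or a pairing. Of 8 permease genes not called with all arrays, 4 were called without wild type replicate 3. Over all tested probe sets, the share called was 4.27% with all arrays and 22.0% without that array. ALP1 and DIP5 kept their direction in all 14 alternative fits. Their groups do not overlap, so leaving out or weighting arrays could not change it, and the kept direction adds no support. Brightness limits ALP1, DAL80, LSO1 and BSC4, which lie near background.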
